A study of Homo sapiens with 3 samples.

Results

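MYC and PVT1 are neighbouring genes at 8q24, and their m6A regions were taken from a list of m6A regions in nuclear RNA of MDA-MB-231, an established human triple-negative breast cancer cell line. A region was counted as a member when its midpoint lay on either strand between 128748 and 128754 kb of chromosome 8 (the MYC window) or between 128806 and 129114 kb (the PVT1 window), in hg19. This gave 47 members of 41836 regions, 7 in MYC and 40 in PVT1. The series has 2 libraries of nuclear RNA bound by a rabbit m6A antibody and 1 library bound by control rabbit IgG, and how each entered the list is not given in its labels. They came from cells for which the labels name no treatment or genetic change. The labels do not say whether the m6A libraries came from separate cultures.

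The mark m6A, adenosine methylated at its N6 nitrogen, is placed on RNA by METTL3 with METTL14, and in messenger RNA it is known to gather in long internal exons and near stop codons. MYC encodes a transcription factor that binds DNA as a partner of MAX and drives growth genes. Its messenger RNA is short-lived, and the IGF2BP proteins are known to bind and stabilise it as m6A readers. PVT1, transcribed downstream of MYC on the same strand, is a long noncoding RNA that is often gained together with MYC in tumours and is the host of several microRNAs. RefSeq, used here for names only, lists MIR1204, MIR1205, MIR1206 and MIR1207 inside PVT1 and no gene between MYC and PVT1. Inside PVT1 it also lists the long noncoding RNA LINC02912 and the pseudogenes RNVU1-32 and RNU4-25P. Regions in the PVT1 window were not divided among these names.

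Few m6A regions lay in the 1 Mb on either side of MYC and PVT1. In the 1 Mb before the MYC window the list held 2 regions, both on the minus strand, and in the 1 Mb after the PVT1 window it held 2, 1 on each strand. The downstream 2 lay 4.54 and 9.265 kb beyond the last PVT1 region. Sparse stretches are common on this strand: the other plus-strand regions of chromosome 8 numbered 0.0298 per 10 kb, with an upper quartile of gaps of 204 kb. The nearest plus-strand region upstream of MYC lay 1231 kb away, from 127517024 to 127517068. Between the last MYC region and the first PVT1 region, a stretch of 54.94 kb held no region on either strand. The windows make up 0.215% of the 145796 kb spanned by the regions of chromosome 8 and held 9.56% of its plus-strand regions (46 of 481).

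**Figure D1:**
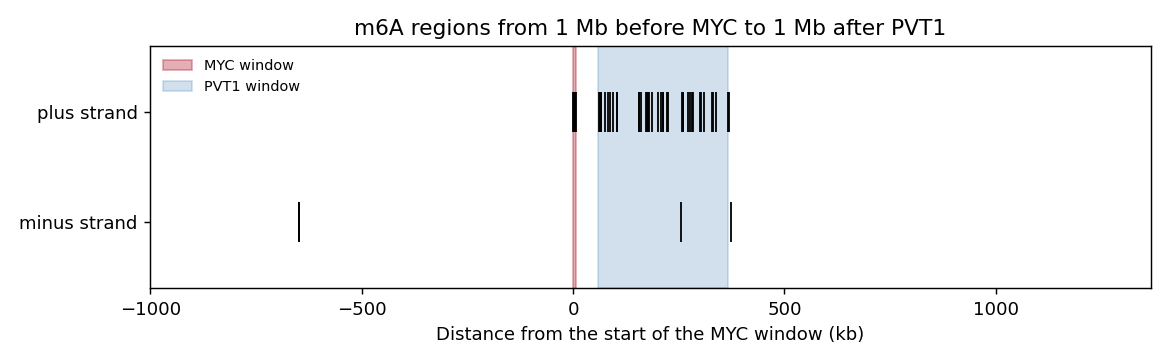
Position of each m6A region from 1 Mb before the MYC window to 1 Mb after the PVT1 window, as distance in kb from the start of the MYC window, with 1 tick per region and a lane per strand; some ticks merge at this scale. The plus-strand ticks fall inside the shaded windows except for 1 just beyond PVT1, and the 52 kb between the windows is empty.

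Both genes are annotated on the plus strand, and 46 of the 47 members were deposited on it. In MYC 7 of 7 regions lay on the gene strand (100%, 95% Wilson interval 64.6 to 100%), and in PVT1 39 of 40 did (97.5%, interval 87.1 to 99.6%). Outside the windows, 435 of the 1888 regions of chromosome 8 were on the plus strand (23.0%, interval 21.2 to 24.99%), and 1 minus-strand run of neighbours up to 10 kb apart held 254 of the chromosome's 1454 minus-strand regions. Over the whole list, 17829 of 41836 regions were on the plus strand (42.6%). The shares of the chromosome and the list pool genes of both strands, so they are not shares on the gene strand. A gene-strand share was not computed for other genes. The intervals above cover counting error only and treat regions as independent, although regions of 1 gene share a transcript. The exception in PVT1 was a region of 46 nt on the minus strand from 129003392 to 129003437, 1331 nt from the nearest plus-strand member and 64.1% of the way along the window. It overlapped no plus-strand region.

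The list has no value for any single library, and its score is 1 for every region, so depth, enrichment over IgG and the agreement of the libraries are unknown here. No value has a replicate error and no difference could be tested over samples. The comparisons below are descriptions of 1 list, and the amount of RNA made from a gene and the methylation of that RNA cannot be told apart in a count of regions.

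The MYC regions lay close together. The 7 regions covered 615 nt, or 10.2% of the 6 kb window, at 11.7 regions per 10 kb. PVT1 had 1.30 regions per 10 kb, and chromosome 8 as a whole 0.133. Per kb of window, MYC was thus 8.98 times as dense as PVT1. PVT1 was 9.79 times as dense as its chromosome, of which much lies outside genes. The genes differ in exon content: GENCODE, in GRCh38, lists 3.001 kb of exons in 6.001 kb of MYC and 5.49 kb in 307 kb of PVT1. Density per kb of exon was not computed. The ratio of MYC to PVT1 therefore does not show that MYC transcripts hold more regions for their length.

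Along MYC the regions fell into 3 clusters when neighbours up to 1 kb apart were joined. The first, near the upstream end of the gene, began with the widest MYC region, of 228 nt from 128748501 to 128748728, and 98.8% of the whole list was narrower. A region of 21 nt followed from 128749040 to 128749060, the narrowest of MYC and close to the list's minimum of 19 nt. The first cluster therefore joined the widest and the narrowest region of the gene, 311 nt apart.

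The middle cluster held 3 regions of like width within 763 nt. They measured 47 nt from 128750494 to 128750540, 48 nt from 128751001 to 128751048 and 42 nt from 128751215 to 128751256, each near the list's median of 45 nt. Their gaps were 460 and 166 nt, and the second is the shortest of the gene. The distance from the first cluster to this one was 1433 nt.

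The downstream cluster began 1772 nt further on. It held a region of 168 nt from 128753029 to 128753196, wider than 96.8% of the list, and a region of 61 nt from 128753881 to 128753941, which ended the series 98.5% of the way along the window. Both wide regions of MYC, over 100 nt, thus lay in the outer clusters, at 10.2% and 85.2% of the window length. GENCODE release 29 gives MYC, in GRCh38, a length of 6.001 kb with 3.001 kb of it in exons of its 9 transcripts. The regions are in hg19 and no annotation of that build was used, so none was assigned to an exon, an untranslated part or the stop codon.

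**Figure D2:**
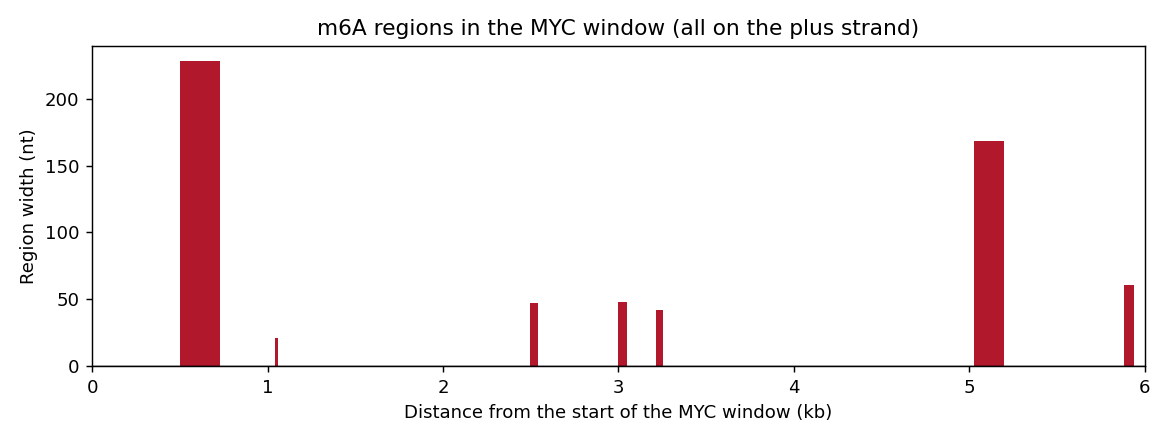
The 7 m6A regions of MYC, drawn at true width along the 6 kb window (x axis, kb from its start, in the direction of transcription) with height equal to width in nt. Clusters of 2, 3 and 2 regions are separated by gaps of 1433 and 1772 nt, and the bars of 228 and 168 nt stand in the first and the last cluster.

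The 5.44 kb run of MYC regions was shorter than most runs of 7 regions, but the length of the gene limits its span. Joining same-strand neighbours up to 10 kb apart gave 232 runs of exactly 7 regions in the list, MYC among them, with a median span of 15.9 kb (quartiles 10.3 and 20.9 kb). Only 13 of those runs were shorter than the MYC run. The runs were not matched by gene length, so this does not show that MYC regions are closer together than those of other genes of 6 kb. The MYC regions covered 11.3% of their run, against a median of 2.34% over the 232 runs (quartiles 1.81 and 4.18%), and 5 runs had a higher share. That share is divided by the same span, so it is not a separate result. When each strand of the genome was divided into tiles of 6 kb, 272 of the 26009 tiles with a region held 7 or more (1.05%), and on the plus strand of chromosome 8 it was 3 of 359. The MYC window is itself 1 of these tiles and is included in both counts.

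The PVT1 regions were spread along nearly the whole gene. The first, of 46 nt from 128808882 to 128808927, lay 2.90 kb into the 308 kb window, and the last, of 120 nt from 129113290 to 129113409, lay 307 kb into it. The last is the PVT1 member nearest to an edge of the window, and just outside the window came a plus-strand region of 36 nt from 129117950 to 129117985 and a minus-strand region of 48 nt from 129122675 to 129122722. The median position was 47.7% of the window (95% binomial interval of the median, 37.5 to 64.5%), with quartiles of 27.4 and 69.9%. The upstream 154 kb held 22 regions and the downstream 154 kb held 18.

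**Figure D3:**
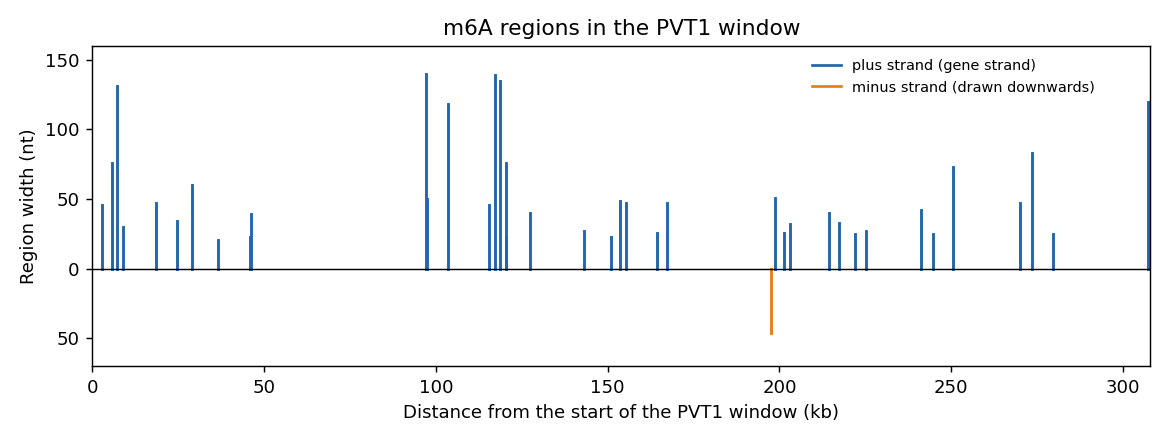
The 40 m6A regions of PVT1 along the 308 kb window (x axis, kb from its start, in the direction of transcription), with line height equal to region width in nt; plus-strand regions point up and the minus-strand region down. Regions run from 2.90 to 307 kb, with an empty stretch of 50.6 kb in the upstream part.

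Within this spread there were long empty stretches. The longest ran for 50.6 kb from 128852357 to 128902960, between the tenth and the eleventh region. The next were 31.4 kb from 128973355 to 129004768 on the plus strand, where the minus-strand region lies, and 27.7 kb before the last region. These 3 stretches make up 35.6% of the window. With the window divided into 10 equal parts of 30.8 kb, the counts were 7, 3, 0, 8, 4, 3, 5, 5, 3 and 2 from the upstream end. Part 4 was thus the fullest and part 3 the only empty one.

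**Figure D4:**
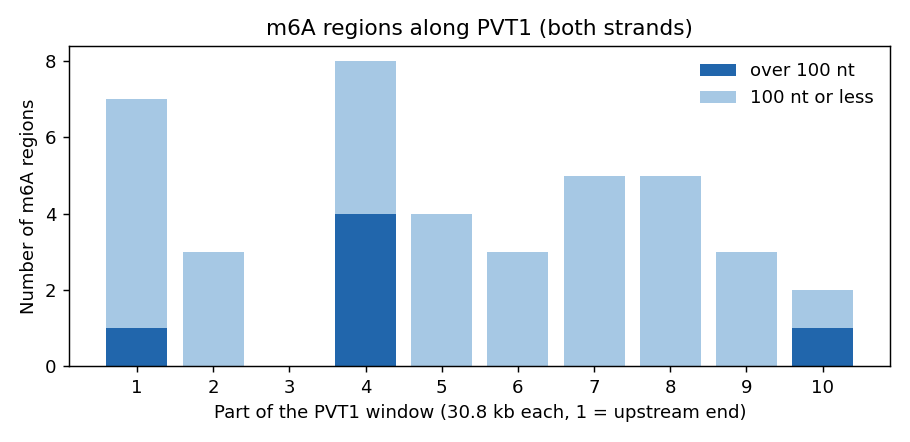
Number of m6A regions in each of 10 equal parts of the PVT1 window (30.8 kb each, part 1 at the upstream end), on both strands, with regions over 100 nt in dark blue. Part 4 holds 8 regions, 4 of them over 100 nt, and part 3 holds 0.

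Most wide PVT1 regions lay in part 4, the part with the most regions of any width. Of the 40 regions, 6 were over 100 nt (15.0%), and 4 of these lay in part 4, where the median width was 97 nt. They measured 140 nt from 128902961 to 128903100, 118 nt from 128909579 to 128909696, 139 nt from 128923097 to 128923235 and 135 nt from 128924575 to 128924709. Only those of 139 and 135 nt were next to each other, and a gap of 11.7 kb follows the region of 118 nt. The wide regions outside part 4 were 131 nt from 128813179 to 128813309, near the upstream end, and the last region, of 120 nt. The widest region of PVT1 immediately follows the longest empty stretch.

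Between these lay narrow regions. In PVT1 12 of 40 regions were 30 nt or less, 6 in the upstream 154 kb and 6 in the downstream 154 kb, and 9061 of the 41836 regions of the list were (21.7%). Between 128924709, the end of the last wide region of part 4, and the last region of the gene, no PVT1 region exceeded 83 nt. The median was 46.5 nt in the upstream 154 kb and 41 nt in the downstream 154 kb.

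PVT1 regions rarely came in close pairs. Joined at 1 kb, its 40 regions left 37 clusters, of which 34 were regions alone and 3 were pairs, and no cluster had 3 members. Lone regions were also the rule in the whole list, where 6097 of 31554 such clusters held 2 or more (19.3%). The closest pair of PVT1 lay 135 nt apart, a region of 23 nt from 128926305 to 128926327 and a region of 76 nt from 128926463 to 128926538. The next pairs were 318 nt apart (23 and 39 nt wide, ending at 128852356, just before the longest empty stretch) and 451 nt apart (140 and 50 nt wide, starting at 128902961, just after it). The closest neighbours beyond 1 kb were 1339 nt apart, the regions of 139 and 135 nt named above, and 1352 nt apart, regions of 76 and 131 nt near the upstream end.

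Gaps between regions were shorter in MYC than in PVT1. The median gap on the gene strand was 0.572 kb in MYC (6 gaps, 0.166 to 1.77 kb) and 4.46 kb in PVT1 (38 gaps, 0.135 to 50.6 kb), with 4.69 kb in the whole list. Gaps of at most 1 kb were 4 of 6 in MYC and 3 of 38 in PVT1 (7.89%), against 24.6% of all same-strand gaps in the list. The 6 kb MYC window cannot hold a gap of 10 kb, so its 6 of 6 gaps below that were fixed by the window. Its median gap is capped in the same way, whereas gaps of the list also run between genes, up to 31159 kb. Gaps of at most 10 kb were 30 of 38 in PVT1 (78.9%), against 61.7% in the list. PVT1 thus had few gaps below 1 kb and many between 1 and 10 kb.

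Median widths were close to that of the list. The median width was 48 nt in MYC (quartiles 44.5 and 114 nt, 21 to 228 nt) and 46 nt in PVT1 (quartiles 27 and 63.2 nt, 21 to 140 nt), with 45 nt in the whole list (quartiles 33 and 54 nt). Regions over 100 nt numbered 2 of 7 in MYC and 6 of 40 in PVT1, against 10.3% of the list and 5.29% of the other plus-strand regions of chromosome 8. The list's most frequent width of 49 nt, held by 8.79% of all regions, occurred in 0 of 7 MYC regions and 1 of 40 PVT1 regions. On the plus strand it was less frequent, at 5.17% in the list and 4.14% of the other plus-strand regions of chromosome 8. With so few members the shares in MYC and PVT1 are coarse.

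**Figure D5:**
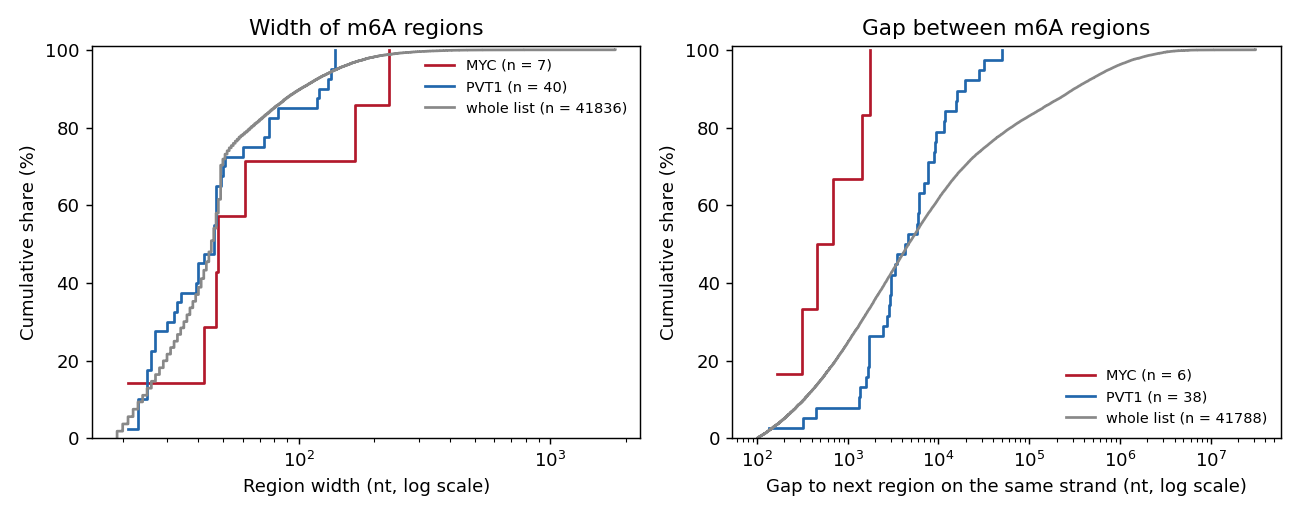
Cumulative share (%) of m6A regions by width (left) and of gaps to the next same-strand region (right), both in nt on a log axis, for MYC, PVT1 and the whole list. The width curves of PVT1 and the list run close together, while the MYC gap curve ends at 1772 nt and the PVT1 gap curve, which begins at 135 nt, has 3 of its 38 gaps at or below 1 kb and ends at 50604 nt.

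Joined at 10 kb, PVT1 fell into 9 runs on the plus strand, 8 of them with 3 or more regions, besides the minus-strand region. The run at the upstream end held 10 regions in 43.5 kb, from 128808882 to 128852356, and 5 of the 260 plus-strand runs of chromosome 8 held as many or more, itself included. In the whole list it was 632 of 16073 runs (3.93%). Runs of 6 regions followed from 128921366 to 128933488 (12.1 kb) and from 128949166 to 128973354 (24.2 kb). Joined at 50 kb, all plus-strand regions after the longest empty stretch formed a run of 30, with the region just beyond the window included, and this was the largest of 166 such plus-strand runs on the chromosome. The whole PVT1 window held 39 plus-strand regions in 308 kb. Among tiles of that length with a region on a strand, 63 of 7193 in the list held as many or more (0.876%). Tiles start at fixed positions, and 1 of the 63 pools the MYC regions with most PVT1 regions, 41 in all.

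The run of 30 regions spanned 215 kb, at 1.40 regions per 10 kb of its span. The largest minus-strand run of the chromosome, joined at the same 50 kb, held 270 regions in 344 kb from 118779966 to 119123928, at 7.85 per 10 kb of its span. GENCODE lists 5.49 kb of PVT1 exons in 25 transcripts, 1.79% of the 307 kb gene in GRCh38. How many PVT1 regions lie in exons or introns was not examined, for want of an annotation in hg19.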

How the data were processed

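Nuclear RNA of MDA-MB-231 was captured with an m6A antibody (2 libraries) or IgG (1 library). The build is hg19 and the aligner Bowtie2, per the submitters' processing notes, which list no version. The sources used here do not give the peak caller, its thresholds, the use of IgG or how libraries were combined. The deposited list gives chromosome, start, end, name, score and strand, and the score as deposited is 1 for every region. It has 0 columns for a single library, so depth is unknown and no test over samples was run.

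Positions are counted from 1 with the end included, and width is end minus start of the deposited record. Gaps are the nt between neighbours on the same strand. Named PVT1 regions are the first and last, the 5 widest, the 5 closest pairs, clusters of 3 or more at 1 kb and the opposite-strand region; every MYC region is named. Regions and runs described for a run of widths, for empty stretches or as the remaining wide region were chosen after their values were seen. The members and rules were chosen with earlier results of these data known. Lists of MYC partners and of genes at 8q24, and a motif search, were planned and not run, because the annotation used is in GRCh38 and no genome was used. Functions were tested on simulated regions. The software was matplotlib 3.10.9, scipy 1.17.1, pandas 2.3.3 and numpy 2.4.6 in Python 3.11.15.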

Additional observations from a re-analysis of the deposited data

How the results depend on the processing

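Narrowing each window by 1 kb at both ends left 4 MYC regions in place of 7 and 39 PVT1 regions in place of 40, with the median position in PVT1 at 46.5% in place of 47.7%. Keeping only regions wider than the list's median of 45 nt left 5 in MYC and 21 in PVT1. The number of PVT1 clusters follows the joining distance, with 37 at 1 kb, 10 at 10 kb and 3 at 50 kb. Whole inclusion, any overlap and windows wider by 1 kb left the counts at 7 in MYC and 40 in PVT1. A PVT1 window wider by 10 kb held 42. Merged regions and other reference points were run for medians of width, spacing or position only, not for counts. Medians and shares stayed within their 95% binomial intervals under every alternative run for them, and the gene-strand share of PVT1 ran from 95.2 to 97.5%. For the MYC median width that interval is the full range of its 7 regions. No choice among those regions could leave it, so it is no check for MYC. For PVT1, whole inclusion, any overlap and a window wider by 1 kb kept the same 40 regions. Its median width and strand share could not move under these 3 alternatives, so they are no check either. Leaving out a library and a stricter score could not be run. No paired analysis was possible because values of single libraries are not in the list.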
